A study of Mus musculus with 2 samples.

Results

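Mir31 and Mir489 are the mouse genes of 2 microRNAs (miRNAs) reported in quiescent muscle satellite cells, and their levels were read in small-RNA libraries of C2C12 cells. They are the 2 rows with these symbols among the 2202 miRNA genes of the deposited tables and were picked by symbol, with no threshold on a measured value. C2C12 is a mouse myoblast line from the C3H strain, established from injured thigh muscle and obtained from ATCC. The labels give 1 group of 2 biological replicates, with no treatment, genetic change, time or culture stage and with age and developmental stage unknown, so the only comparison is between the libraries. Both replicates are the same cell line, and the labels do not say how separate their cultures were, so a difference between them measures the spread between these samples. The libraries hold RNA under 30 nucleotides.

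Satellite cells are the stem cells of skeletal muscle. They rest in a quiescent state, re-enter the cell cycle after injury and give rise to the myoblasts that rebuild fibres. A miRNA is cut from a hairpin precursor and pairs through its seed, bases 2 to 8, with messenger RNAs that it represses. In quiescent satellite cells miR-31 is known to hold back translation of Myf5, a myogenic transcription factor, in ribonucleoprotein granules, and miR-489 is known to restrain the oncogene Dek and so entry into the cell cycle. C2C12 cells in growth medium cycle as myoblasts, but the stage at which these cells were harvested is not stated. No messenger RNA or protein was measured here, so neither Myf5 nor Dek can be followed.

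The mature arms are shown with the seed in capitals, since the seed sets which messages each can pair with. The sequences are from RefSeq (GRCm38.p6), whose table lists both arms of each hairpin.
miR-31-5p: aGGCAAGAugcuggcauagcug
miR-31-3p: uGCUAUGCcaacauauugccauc
miR-489-3p: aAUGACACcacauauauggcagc
miR-489-5p: uGUCAUAUgugugaugacacuuucu
miR-425-5p: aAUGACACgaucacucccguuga
The pair miR-489-3p and miR-425-5p is shown because both carry the seed AUGACAC. They are the same over their first 8 bases and at 12 of 23 positions in all. No other gene in the table has that seed, and no other gene has the seed of either miR-31 arm or of miR-489-5p. A seed of a single gene is the usual case, since 1182 of the 1398 distinct seeds (84.5%) belong to 1 gene.

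The hairpins are shown next, with both mature arms in capitals, because the counts are per hairpin and do not tell the arms apart.
Mir31: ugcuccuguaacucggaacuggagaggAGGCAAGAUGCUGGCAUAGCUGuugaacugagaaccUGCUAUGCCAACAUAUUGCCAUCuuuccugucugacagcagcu
Mir489: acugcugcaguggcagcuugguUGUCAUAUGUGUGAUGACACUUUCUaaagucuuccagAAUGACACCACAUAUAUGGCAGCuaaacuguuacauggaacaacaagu
They are of like length, 106 bases for Mir31 and 107 for Mir489, and identical in GENCODE M21 and RefSeq. The predicted fold of Mir31 had 39 base pairs and a minimum free energy of -48.7 kcal/mol, and that of Mir489 had 38 pairs and -37.6 kcal/mol. The longest stretch shared with any other miRNA gene was 12 bases for Mir31 and 11 bases for Mir489. Neither arm of Mir489 occurs in a GENCODE transcript of another gene on either strand, and the arms of Mir31 occur in 1 other transcript, that of its own host. Matches in the genome outside annotated transcripts were not searched.

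The hairpins lie in different kinds of host (the map of the host transcripts). On mm10, Mir31 (ENSMUSG00000065408.1) is at chr4:88910557-88910662 on the minus strand, in exon 3, the last exon, of the long intergenic non-coding RNA AL805899.1. No other annotated miRNA gene lies within 50 kb of it. Mir489 (ENSMUSG00000070107.1) is at chr6:3721897-3722003 on the minus strand, in an intron of the protein-coding gene Calcr in all 5 annotated transcripts that span it. Calcr encodes the calcitonin receptor, a known marker of quiescent satellite cells. The same intron, of 4204 bases, holds Mir653, with 511 bases between the hairpins.

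**Figure D1:**
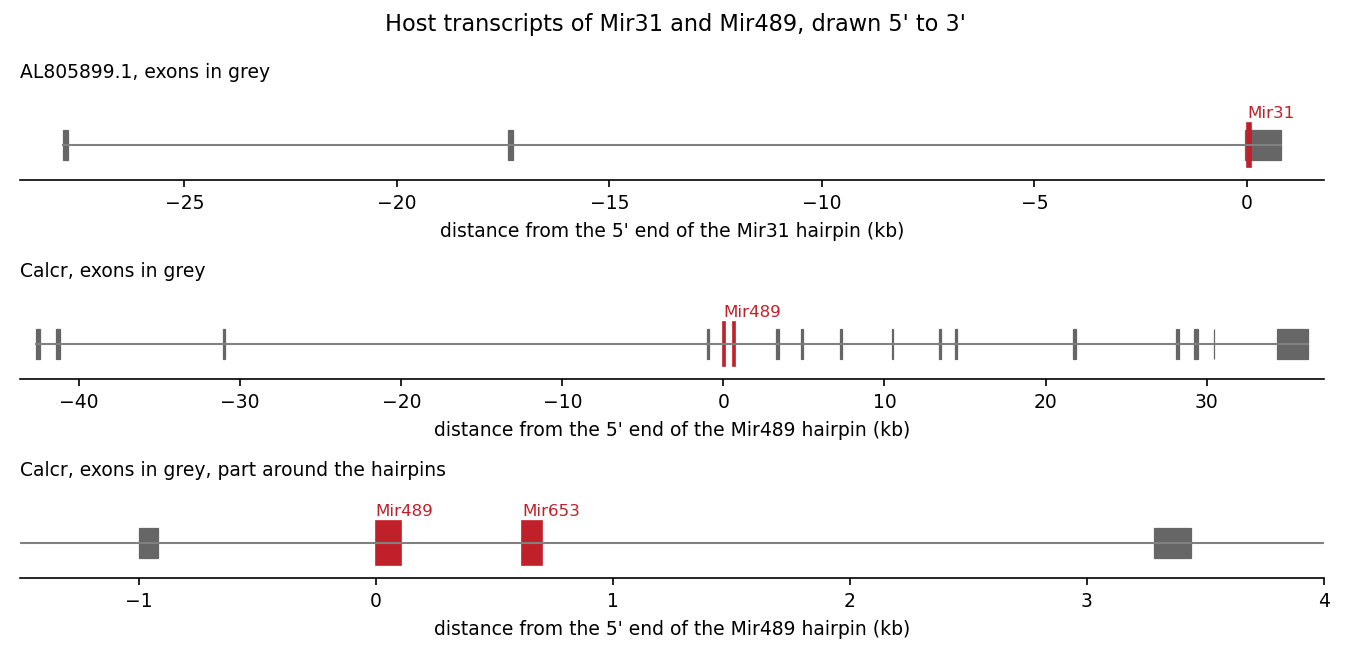
Exons (grey) of the host transcripts and miRNA hairpins (red), drawn 5' to 3', with the distance from the 5' end of the hairpin in kb on the horizontal axis. Mir31 lies inside the last exon of AL805899.1, and Mir489 and Mir653 share an intron of Calcr, enlarged in the bottom panel.

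The data come from 55036610 reads in replicate 1 and 24569278 in replicate 2, and 27661907 and 15025315 of these were assigned to miRNA genes in sense. Levels are counts per 1000000 (CPM) of these assigned totals. In the 8 skeletal muscle markers, 2 genes were detected (CPM of at least 1 in both libraries), Mir206 and Mir133b. By the same rule 320 of all 2202 genes were detected, and 312 of the 1174 whose symbol starts with Mir. The muscle list summed to 2649 CPM in replicate 1 and 1050 in replicate 2. Mir1a-1, Mir133a-1 and Mir133a-2 were at 0, and their hairpins have copies with which they share 28 bases (Mir1a-1) or 31 bases (Mir133a-1 and Mir133a-2). Among markers of other cell types, 2 of 5 blood genes (220 and 126 CPM in sum), 2 of 2 endothelial genes (222 and 139 CPM) and 3 of 5 epithelial genes (20.9 and 16.8 CPM) were detected, and none of 6 neuronal genes. The 2 endothelial genes, Mir126a and Mir126b, overlap on opposite strands of 1 locus. The part of these markers in the results was not tested.

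Mir31 was among the most abundant miRNA genes and Mir489 had no read at all. Replicate 1 held 862483 reads of Mir31 and replicate 2 held 420880. These are 31179 CPM (exact Clopper-Pearson 95% interval 31115 to 31244) and 28011 CPM (27928 to 28095), or 3.12% and 2.80% of the counted reads. It ranked 6 in replicate 1 and 5 in replicate 2 by CPM, and 7 in both by CPM per hairpin base. Reads with several places in the genome, 33.4% and 22.8% of all reads in replicates 1 and 2, count for no gene here. Genes with copies can therefore rank too low, while Mir31 shares no more than 12 bases with another miRNA gene. Of all reads, counted or not, Mir31 took 1.57% and 1.71%. No read fell on its opposite strand in either library. Intervals and limits of this kind cover counting error alone, because PCR copies carry no molecular identifier here.

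Mir489 had 0 reads on either strand in both libraries. The upper limit that such a count allows, taken as 3 reads, is 0.108 CPM at the depth of replicate 1 and 0.2 CPM at that of replicate 2. The two-sided exact interval used for Mir31 is wider and would reach 0.133 and 0.246 CPM for Mir489. Its neighbour Mir653 in the same Calcr intron was also at 0 in both. A gene with no read is common in the annotation, since 1398 of 2202 genes (63.5%) had none in either library. Among genes whose symbol starts with Mir the share was 452 of 1174 (38.5%), and among those that, like Mir489, share no stretch of 20 bases with another miRNA gene it was 312 of 916 (34.1%). Mir489 therefore had the same value as 1397 other genes, and no gene can be named as most like it.

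**Figure D2:**
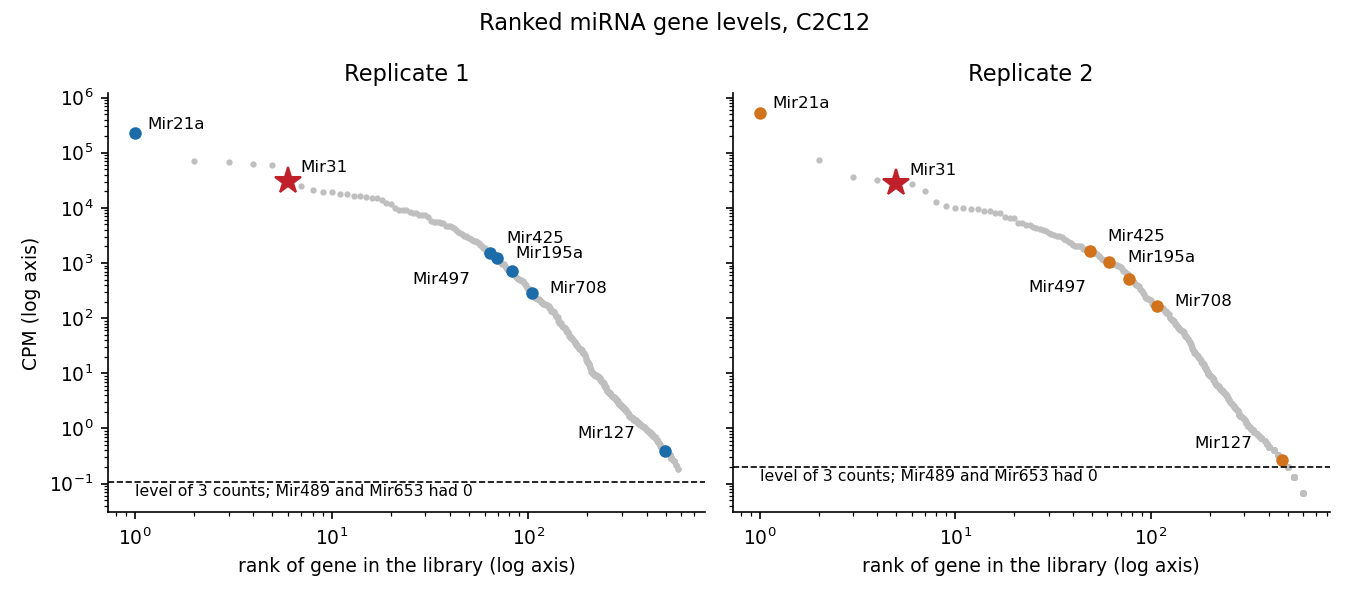
Level in CPM against rank within each library, both on log axes, for genes with at least 10 reads over both libraries (grey), with Mir31 as a red star and other named genes as coloured points. Mir31 stands at rank 6 in replicate 1 and 5 in replicate 2, and the dashed line is the level of 3 counts, the limit for Mir489 and Mir653.

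Within a library the ratio of the members does not depend on how libraries are scaled. Mir489 was taken at the limit of 3 counts per library. Mir31 then had at least 287494 times that count in replicate 1 and at least 140293 times in replicate 2. Per hairpin base these bounds were 290207 and 141617. The wider two-sided limit for Mir489 would lower all of these bounds, which are ratios of read counts.

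The other gene that carries the seed of miR-489-3p, Mir425, had reads in both libraries. Mir425 (chr9:108568777-108568861, plus strand) had 41828 reads in replicate 1 and 24505 in replicate 2, or 1512 and 1631 CPM, at ranks 64 and 49. Both libraries were thus far above the limit for Mir489. The counts do not separate miR-425-5p from its other arm, so the level of the shared seed itself is not known.

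Mir31 was compared with the other miRNAs reported in quiescent satellite cells, a list of 5 genes in the annotation. Of these, 3 were detected, beside 320 of all 2202 genes and 312 of the 1174 whose symbol starts with Mir. In the list, 1 gene (Mir127) stayed below a CPM of 1 and 1 (Mir653) had no read. The summed share of the list was 0.222% in replicate 1 and 0.172% in replicate 2, against 3.12% and 2.80% for Mir31. Mir195a and Mir497 are neighbours on chromosome 11 that are known to repress cell cycle genes, and their 5p arms share a seed.
miR-195a-5p: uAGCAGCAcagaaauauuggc
miR-497a-5p: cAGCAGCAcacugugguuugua
Mir195a had 1215 and 1045 CPM in replicates 1 and 2. Mir497 had 712 and 512 CPM. Both were the highest of the list in each library. Mir31 still had 25.7 and 26.8 times the counts of Mir195a, and 43.8 and 54.7 times those of Mir497. Per hairpin base the ratios were 22.8 and 23.8 to Mir195a and 34.7 and 43.3 to Mir497.

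The remaining quiescence genes were lower. Mir708, tied to Notch signalling in the satellite cell niche, had 291 and 168 CPM, and its hairpin shares a stretch of 23 bases with another miRNA gene, so its level is uncertain. Mir127, from the imprinted Dlk1-Dio3 region, was at 11 and 4 reads, or 0.398 and 0.266 CPM. Mir31 had 107 and 167 times the counts of Mir708, and 110 and 172 times per hairpin base. In CPM and in CPM per hairpin base, the order Mir31, Mir195a, Mir497, Mir708, Mir127 was the same in both libraries, and from each gene to the next the values did not overlap.

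The second list holds 10 miRNA genes tied to activation or differentiation, among them repressors of the satellite cell factors Pax7 and Pax3. Of these, 5 were detected, beside 320 of all 2202 genes and 312 of the 1174 whose symbol starts with Mir. In the list, 3 had no read. Mir206, the skeletal muscle miRNA known to repress Pax7, had 2559 CPM in replicate 1 and 1028 in replicate 2. Mir31 had 12.2 times its counts in replicate 1 and 27.2 times in replicate 2, or 8.39 and 18.8 times per hairpin base. Mir27a and Mir27b, known repressors of Pax3, were the highest of the list at 9007 and 6694 CPM for Mir27a and 5541 and 4583 CPM for Mir27b. Mir31 stayed above both in each library, at 3.46 and 4.18 times the counts of Mir27a and 5.63 and 6.11 times those of Mir27b. Per hairpin base it was 2.84 and 3.43 times Mir27a and 3.88 and 4.21 times Mir27b. The Mir27a and Mir27b hairpins have 20 bases in a row in common, so the division of reads between these genes is uncertain.

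The other activation genes had low counts. Mir133b had 88.0 CPM in replicate 1 and 20.4 in replicate 2, and shares 21 bases with Mir133a-1. Mir486, which is known to repress Pax7, had 3.94 and 1.13 CPM, and Mir3107, the entry for miR-486b on its opposite strand, had 15 and 4 reads. Stretches shared by overlapping genes such as Mir486 and Mir3107 were not searched, so their levels are uncertain. Mir1a-2 had 3 reads in replicate 1 and 0 in replicate 2, and Mir1a-1, Mir133a-1 and Mir133a-2 had no gene-strand read. Mir1a-1 and Mir1a-2 share 28 bases, and Mir133a-1 and Mir133a-2 share 31. Reads that map to several places were not counted for a gene, so the levels of these genes are not known. In the counted reads, no gene of either list reached the level of Mir31 in either library.

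**Figure D3:**
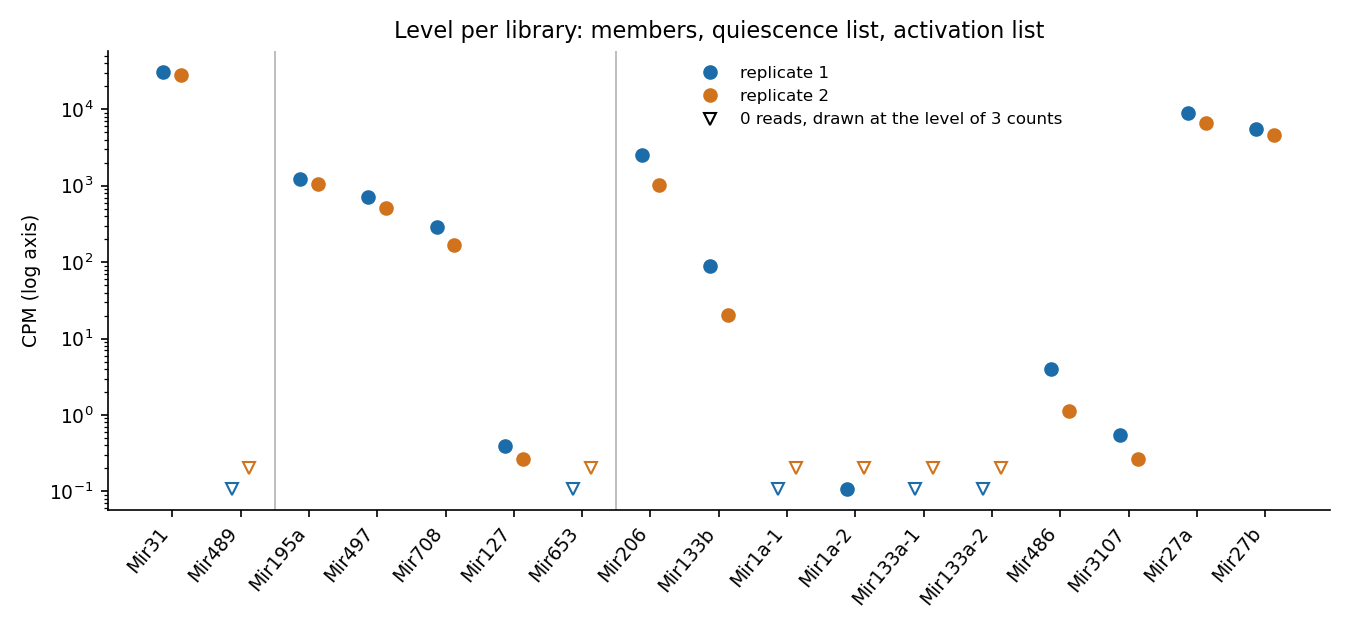
Level in CPM (log axis) of Mir31 and Mir489, the quiescence list and the activation list, separated by vertical lines, with replicate 1 in blue and replicate 2 in orange. Open triangles are genes at 0 reads drawn at the level of 3 counts, and Mir31 at 31179 and 28011 CPM lies above every other point.

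The genes nearest to Mir31 in both libraries were Mir143, Mirlet7i and Mir140, at distances of 1.04, 1.09 and 1.13 in log2(CPM + 1) over the 2 libraries. Mir143, known from smooth muscle and fibroblasts, had 61345 and 36022 CPM, both above the range of Mir31. Mirlet7i, of the let-7 family, had 66493 and 26931 CPM, a range that spans Mir31, so in CPM the pair did not differ beyond their spread. In CPM per hairpin base Mirlet7i had 782 and 317, both above the 294 and 264 of Mir31. Mir140, known from cartilage, had 15204 and 20507 CPM, both below Mir31. By counts Mir31 was 2.05 times Mir140 in replicate 1 and 1.37 times in replicate 2. Per hairpin base it was 1.35 and 0.902 times, so the order in replicate 2 turned on the division by length. The libraries hold RNA under 30 nucleotides, shorter than these hairpins, so counts need not grow with hairpin length.

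**Figure D4:**
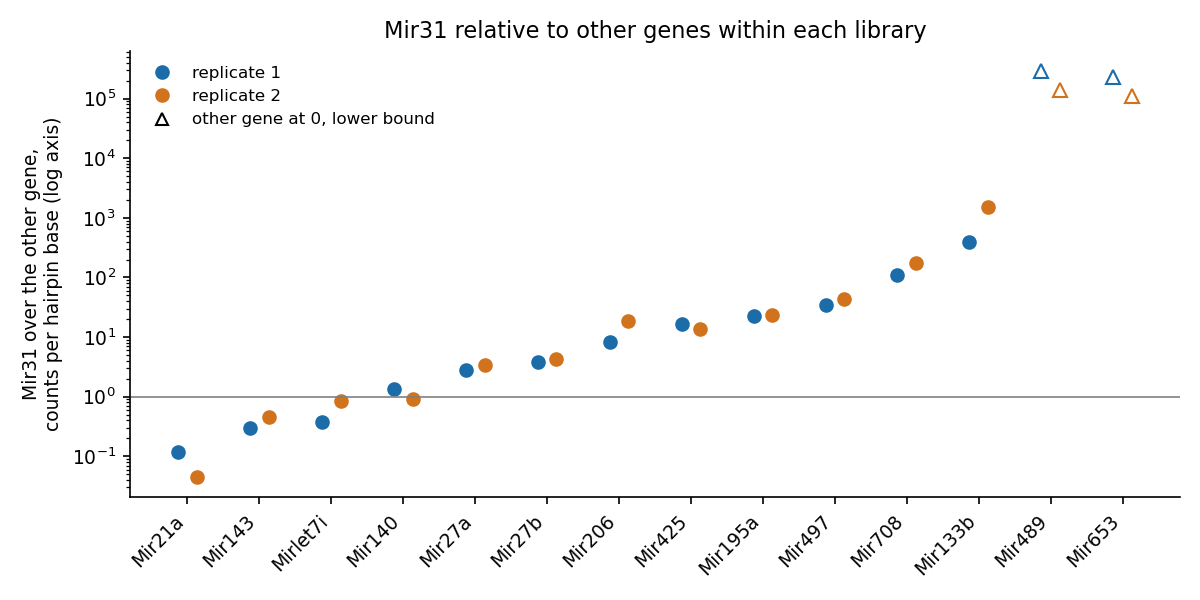
Ratio of Mir31 to other genes within each library, in counts per hairpin base on a log axis, with replicate 1 in blue and replicate 2 in orange. Open triangles are lower bounds for genes at 0 reads, Mir489 and Mir653, and the ratio to Mir195a is nearly the same in both libraries (22.8 and 23.8) while that to Mir206 is not (8.39 and 18.8).

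The ratio of Mir31 between the libraries turned on the scaling. Per library total it was 1.11-fold higher in replicate 1. After trimmed-mean (TMM) scaling, which sets the libraries level over most genes, it was 1.67-fold higher in replicate 2, a log2 ratio of 0.74 (counting SE 0.0027). Mir21a, the most abundant gene, made up 23.1% of replicate 1 and 53.5% of replicate 2. Over the counts left without Mir21a, Mir31 took 4.05% in replicate 1 and 6.03% in replicate 2, a log2 ratio of 0.57. TMM moved the log2 ratio of every gene up by 0.90 against library totals.

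The difference in Mir31 was beyond counting noise and within the range of other genes. A two-sided exact binomial test with Benjamini-Hochberg adjustment over 556 genes called it under TMM, under library totals in the opposite direction, and under DESeq2 size factors (log2 ratio 0.68), with adjusted p at or below 1e-300, the smallest value reported. The test compares 2 libraries with counting error alone, and 41.5% of the 556 genes were called under TMM, 24.6% higher and 16.9% lower in replicate 2. Under library totals 59.4% were called. The spread between the replicates was larger than counting error, with a common coefficient of variation of 34.4%, which implies an SD of 0.70 for a log2 ratio. The TMM ratio of Mir31 was 1.06 times that SD. Of the 210 genes that averaged 10 CPM or more, 43 (20.5%) had a larger absolute log2 ratio, and of the 71 that averaged 1000 CPM or more, 8 (11.3%) did. By library totals the ratio of Mir31 was small beside most genes, at -0.15 times the implied SD, with 194 of 210 (92.4%) and 68 of 71 (95.8%) further from 0. Mir489 and Mir653, with no read, could not be tested.

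**Figure D5:**
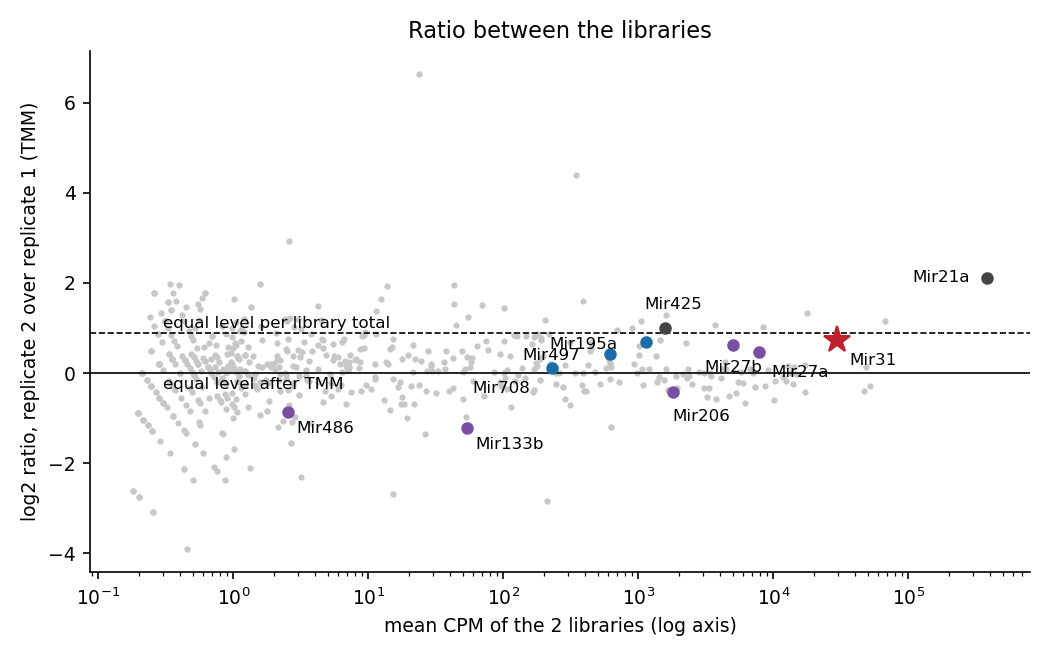
Log2 ratio of replicate 2 over replicate 1 after TMM scaling against the mean CPM of the libraries (log axis), for 556 genes with at least 10 reads (grey). Marked are Mir31 (red star), genes of the quiescence list (blue) and of the activation list (purple), and Mir425 and Mir21a (dark grey). Mir127 of the quiescence list and Mir3107 of the activation list are among the unmarked grey points. Mir31 at 0.74 lies between the line of equal level after TMM and the dashed line of equal level per library total at 0.90.

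Under TMM, 3 of 4 tested quiescence genes were called higher in replicate 2 and none lower, beside 24.6% and 16.9% of all tested genes. Their median log2 ratio was 0.42, against 0.09 over all tested genes. Mir195a had a log2 ratio of 0.68 and Mir497 one of 0.42, while Mir708 had 0.10 (adjusted p = 0.00587, exact binomial test). Mir127 had 0.42 and was not called (adjusted p = 0.907, exact binomial test). By library totals, where 4.68% of all genes were called higher and 54.7% lower, the same list had none higher and 3 lower. Among the cell type markers under TMM, the epithelial list had a median log2 ratio of 0.79, with 2 of 4 tested genes called higher and none lower, but by library totals a median of -0.11, with none higher and 1 lower. The epithelial genes called higher had few reads, 74 and 36 for Mir141 and 256 and 132 for Mir205. The skeletal muscle list had a median of -0.18 under TMM and -1.08 by library totals, with 2 of 4 tested genes lower and none higher under both. The blood list had medians of 0.19 and -0.70, with 1 of 5 tested genes higher under TMM and 2 lower by library totals. The endothelial list had 0.19 and -0.71, with 1 of 2 higher under TMM and 2 lower by library totals. The part of these markers in the ratios of the quiescence list was not tested. Mir708 was no longer called with DESeq2 size factors (adjusted p = 0.374, exact binomial test).

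Of 6 tested activation genes, 2 were called higher and 3 lower in replicate 2 under TMM, beside 24.6% and 16.9% of all tested genes. Their median log2 ratio was -0.21, against 0.09 over all tested genes. Mir27a (log2 ratio 0.47) and Mir27b (0.62) were higher in replicate 2, and Mir206 (-0.42), Mir133b (-1.21) and Mir486 (-0.87) were lower. The level of Mir486 is uncertain because of its overlap with Mir3107. By library totals none was higher and 5 were lower, beside 4.68% and 54.7% of all tested genes. Mir425 was higher in replicate 2 on every scaling, with a log2 ratio of 1.01 under TMM and 0.11 by library totals.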

How the data were processed

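MicroRNA-seq libraries of C2C12 cells were analysed, 2 biological replicates of 1 group. The deposited tables hold the authors' whole-number read counts per miRNA gene on either strand, on the gene's strand and on the opposite strand. The either-strand counts leave out reads of some genes that overlap another on the opposite strand. Mir497, for example, had 0 there in both libraries, against 19692 and 7694 gene-strand reads. The alternative run on reads on either strand therefore lacks such genes. The build (mm10) and annotation (GENCODE M21) are given per the file headers of the readmes, and the labels point to an adapter-trimming protocol. Which aligner and counter were used is not stated in these sources. Rows that name no gene (49.7% and 38.8% of reads) stayed out of totals, and reads with several places in the genome have a row of their own.

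The gene-strand counts were divided by their total per library. All 2202 identifiers matched GENCODE M21. The list names Mir497a and Mir486b were matched through RefSeq synonyms, to Mir497 and Mir3107. Scaling used TMM in edgeR 4.0.16 under R 4.3.3, with DESeq2 1.42.0 size factors and library totals as alternatives. Genes with a sum of at least 10 counts had their pair of counts tested by a two-sided exact binomial test (scipy 1.17.1, threshold 0.05). Log2 ratios carry a prior count of 0.5. The coefficient of variation is edgeR's common dispersion. Folds of the hairpins came from RNAfold 2.7.2. The test was run on simulated Poisson counts of the 556 genes, drawn at the same scaling factors that the test used. There it recovered 60 of 100 genes at a true 2-fold rise and 49 of 100 at a true 0.5-fold level, and called 2 of 356 unchanged genes. The simulation held counting noise alone. The real replicates had a common coefficient of variation of 34.4%, so these rates do not carry over to them.

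No measured value entered the rule for the members, but the members, lists and tests were chosen with earlier results of these data known. The genes named are the members, both lists, the 3 genes nearest to Mir31, miRNA genes within 50 kb, genes that share a seed with a member, Mir21a and the cell type markers.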

Additional observations from a re-analysis of the deposited data

Results flagged for a closer look

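Reads above the limit of 3 counts stood in rows and columns other than the gene-strand counts of the genes described. Reads that mapped to several places numbered 18382947 in replicate 1 and 5599235 in replicate 2, and which genes they came from is not recorded. Neither Mir31 nor Mir489 had a read on the opposite strand. Of the quiescence list, Mir708 had 143 reads on the opposite strand in replicate 1 and 34 in replicate 2, where no other miRNA gene is annotated. Mir497 had 21 and 19, which are the gene-strand counts of Mir497b on that strand. Of the activation list, Mir1a-2 had 123 and 43 such reads, the gene-strand counts of Mir1b, which overlaps it. Mir486 had 15 and 4 and Mir3107 had 109 and 17. These genes overlap on opposite strands, and the reads are the gene-strand counts of each other.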

How the results depend on the processing

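Mir489 had 0 reads under every alternative run. The level of Mir31, 29595 ± 2240 CPM (SD, n = 2), was 50391 CPM over the total without Mir21a and 16401 CPM over all reads, and 28011 to 31179 when either replicate was left out. Its rank by mean CPM, 6, ranged from 5 to 6, and the smaller lower bound of its ratio to Mir489 from 140293 (without replicate 1) to 287494 (without replicate 2). With library totals in place of TMM the log2 ratio of replicate 2 over replicate 1 turned to -0.15 for Mir31, -0.22 for Mir195a, -0.48 for Mir497, -0.80 for Mir708, -0.47 for Mir127, -0.43 for Mir27a, -0.27 for Mir27b and -0.77 for Mir143. With totals without Mir21a it turned to -0.068 for Mir708 and -0.041 for Mir143. Calls by library totals were 26 higher and 304 lower, against 137 and 94 under TMM. The quiescence list then had 0 higher and 3 lower, and the activation list 0 and 5. By construction, library totals lower every log2 ratio by the same 0.90 against TMM. Mir31 kept its direction and call with no filter (log2 ratio 0.70), with at least 50 counts (0.71) and with reads on either strand (0.74). Mir708 lost its call with no filter (adjusted p = 0.212, exact binomial test) and with at least 50 counts (0.0732). The common coefficient of variation was 0.499 by library totals and 0.340 with DESeq2. No paired analysis was possible because the labels give a single group.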
